A study of Mus musculus and Homo sapiens with 4 samples.

Results

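The 31 genes described here encode ribosome biogenesis factors, the nucleolar and pre-ribosomal proteins that make ribosomal RNA and assemble it into subunits. They were taken as a list of names, and a probe set belonged to a gene when the platform annotation gave that gene as its 1 symbol, upper and lower case alike. All 31 were found among 18193 named genes of the mouse array, on 64 probe sets, and 28 among 19773 named genes of the human array, on 58 probe sets. NOP56, DKC1 and BOP1 lay only on 7 human probe sets that carry several symbols, and they are not described in the human line. The study hybridised 4 Affymetrix arrays, 1 to each stably infected line. LM8, a mouse osteosarcoma line, and A375M, a human melanoma line, were each infected with pSIREN-RetroQ carrying a hairpin against Merm1/Wbscr22 of their own species (knock-down) or with the pSIREN-RetroQ control (control). LM8 was grown in MEM and A375M in DMEM, both with fetal bovine serum. Whether each infected line was a clone or a mixed population is not stated in the labels. The values are log2 RMA expression values, and each difference is the knock-down value minus the control value of the same line. Each group is a single array, so the differences inside a line carry neither an error from replicates nor a p-value, and precision is limited by the number of arrays.

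Ribosome synthesis begins in the nucleolus, where RNA polymerase I transcribes a long precursor that is cut and chemically modified into the RNAs of the small and large subunits. Box C/D particles guide methylation and box H/ACA particles guide pseudouridylation of the precursor, and separate sets of factors then assemble and mature each subunit. Merm1, also known as Wbscr22 and now named BUD23, is a methyltransferase of the small-subunit ribosomal RNA that also takes part in maturation of the small subunit, and tumour cells commonly express this machinery at high levels.

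The hairpins lowered the level of their target in both lines. Bud23 read 8.48 in the LM8 knock-down array and 10.61 in the LM8 control array, which left 22.9% of the control level. The bright BUD23 probe set read 8.38 in the A375M knock-down array and 10.70 in the A375M control array, which left 20.04%, while a dim one read 3.16 and 3.28. In LM8 all 9 named osteoblast markers exceeded the array median in both arrays, and in A375M all 10 named melanocyte markers did. Of 11 named melanocyte markers 5, Mitf, Sox10 and Pax3 among them, also did so in LM8, and of 10 named osteoblast markers 6 did in A375M, so these lists do not separate the lines cleanly. Of 6 named epithelial markers 1 exceeded the median in both LM8 arrays and 3 in both A375M arrays. Of 6 named leukocyte markers 1 exceeded the median in both LM8 arrays, and of 5 in A375M 3 did. RMA makes the distributions of the arrays nearly equal, so a change of all transcripts together would not be seen. Of all probe sets 0.705% had the same value in both LM8 arrays and 45.4% in both A375M arrays, which places many human differences at exactly 0.

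Mouse promoter windows from RefSeq (GRCm38.p6), each reaching from 250 bases before the transcription start to 50 bases from it, were found for 27 of the 31 genes and not for Bop1, Fbl, Npm1 and Rrs1. The E-box CACGTG, which reads the same on both strands and is the letters bound by MYC and MAX, stood in 9 of these 27 windows (33.3%), against 14 of 81 windows of other ribosome biogenesis genes (17.3%) and 7.24% of 27025 gene promoters of the same length. It stood in 6 of 11 small-subunit factors (Ltv1, Pno1, Tsr1, Utp18, Utp20 and Wdr43), in 2 of 5 large-subunit factors (Nop2 and Pes1) and in Rrn3, but in none of the 6 snoRNP genes with a window. The ETS-type letters CCGGAAG, searched on both strands and without overlap with the E-box letters, stood in 9 of 27 member windows, against 39 of 81 windows of the other pathway genes (48.1%) and 9.12% of all promoters. Median GC content was 59.3% in the member windows and 52.7% in all windows, so base composition differed as well. The windows below belong to the members with the largest differences described next: Polr1a, the lowest in LM8, Rrn3, whose human counterpart was the lowest in A375M, and Utp20 and Tsr1, the highest small-subunit factors in LM8. Capitals mark the E-box. Polr1a has none, Rrn3 has 2, and Tsr1 and Utp20 have 1 each, starting at base 25 and base 38 of the transcribed part. The presence of these letters is a description and shows no binding.
Polr1a, chr6:71908803-71909102, plus strand: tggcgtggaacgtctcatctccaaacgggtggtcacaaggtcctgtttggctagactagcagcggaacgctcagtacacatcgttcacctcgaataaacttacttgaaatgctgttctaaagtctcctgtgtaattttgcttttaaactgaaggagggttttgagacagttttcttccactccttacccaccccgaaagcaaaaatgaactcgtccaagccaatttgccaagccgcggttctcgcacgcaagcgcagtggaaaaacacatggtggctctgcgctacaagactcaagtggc
Rrn3, chr16:13780449-13780748, plus strand: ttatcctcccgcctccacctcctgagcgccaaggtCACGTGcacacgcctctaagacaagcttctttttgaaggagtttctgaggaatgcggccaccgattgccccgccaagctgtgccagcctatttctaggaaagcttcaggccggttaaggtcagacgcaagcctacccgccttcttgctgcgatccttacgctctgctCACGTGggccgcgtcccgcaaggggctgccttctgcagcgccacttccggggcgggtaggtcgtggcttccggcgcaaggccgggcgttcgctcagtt
Utp20, chr10:88826765-88827064, minus strand: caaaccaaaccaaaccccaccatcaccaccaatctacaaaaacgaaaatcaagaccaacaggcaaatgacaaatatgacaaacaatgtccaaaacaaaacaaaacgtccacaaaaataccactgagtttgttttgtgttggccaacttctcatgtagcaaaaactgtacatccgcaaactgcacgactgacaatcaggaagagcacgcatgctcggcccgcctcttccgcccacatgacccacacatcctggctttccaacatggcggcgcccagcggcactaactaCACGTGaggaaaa
Tsr1, chr11:74897830-74898129, plus strand: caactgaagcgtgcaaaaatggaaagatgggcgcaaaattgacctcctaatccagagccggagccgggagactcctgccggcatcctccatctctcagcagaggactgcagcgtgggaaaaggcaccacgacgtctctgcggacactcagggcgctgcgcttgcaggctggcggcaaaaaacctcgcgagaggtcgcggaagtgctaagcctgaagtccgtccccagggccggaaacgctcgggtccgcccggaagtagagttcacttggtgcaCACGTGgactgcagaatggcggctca

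On the brightest probe set of each gene, transcripts of the ribosome biogenesis factors differed little between the knock-down and control arrays in either line. In LM8 none of the 31 genes was at least 1.2-fold higher (0.26 on the log2 scale) in the knock-down array, where 8.85% of all kept genes were, and 1 was at least 1.2-fold lower, where 7.58% were. In A375M none of 28 was at least 1.2-fold higher, where 3.21% of kept genes were, and 1 was at least 1.2-fold lower, where 4.67% were. The 2 genes past this fold, Polr1a in LM8 and RRN3 in A375M, both act in RNA polymerase I transcription. On its brightest probe set no member was past 1.5-fold. That size was reached by 1.16% of kept genes upward and 1.31% downward in LM8, and by 0.378% and 0.37% in A375M. A dimmer Nolc1 probe set was past it in LM8, at 0.63 on the log2 scale.

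A kept gene is one whose brightest probe set exceeded the 50th percentile of the array in at least 1 array, which left 11646 genes in LM8 and 13244 in A375M. All 31 members in LM8 and all 28 in A375M exceeded it in both arrays, so the filter removed no member. Over the members the median difference was 0.029 in LM8, with 20 higher and 11 lower. Over all 11646 kept LM8 genes it was 0.015, with 6268 higher and 5358 lower. Over the 6211 of them within the level range of the members it was 0.019, with 3469 higher and 2739 lower. In A375M the median over members was 0, with 10 higher, 7 lower and 11 identical to the last digit. Over all 13244 kept A375M genes it was 0, with 3835 higher, 5334 lower and 30.8% identical. Over the 7703 of them within the level range of the members it was -0.0033, with 2038 higher and 3902 lower. The middle 50% of members lay between -0.017 and 0.081 in LM8 and between -0.0077 and 0.022 in A375M, where that of all kept genes reached from -0.091 to 0.12 and from -0.071 to 0.021. Among the 6211 LM8 genes whose level lay within the range of the members, 5.67% were at least 1.2-fold higher and 4.57% lower. Among the 7703 such genes of A375M the shares were 1.08% and 5.05%. The members' single calls and sign counts were not tested against these values.

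**Figure D1:**
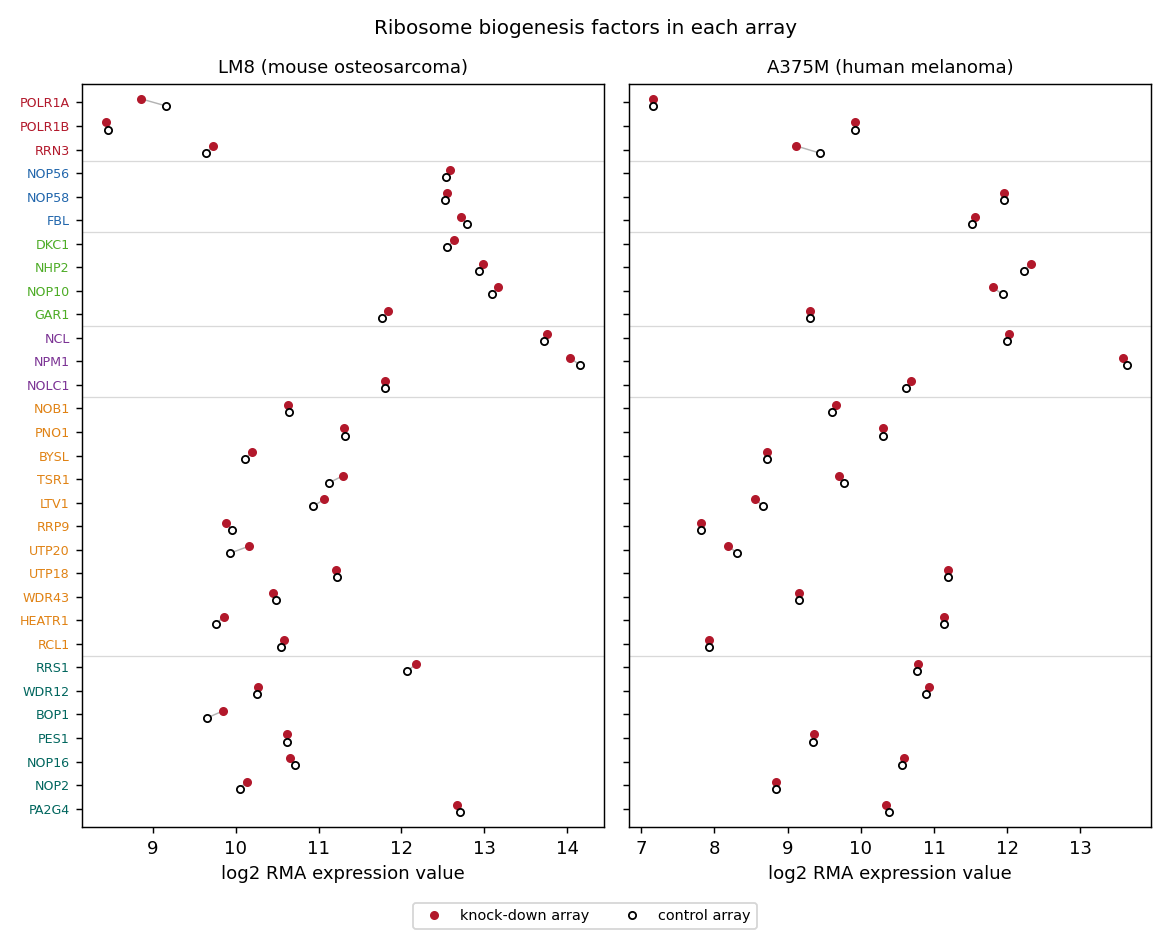
Level of each ribosome biogenesis factor on its brightest probe set (horizontal axis, log2 RMA expression value) in the knock-down array (filled) and the control array (open) of LM8 (left) and A375M (right), 1 array per group. Genes run down the page by role, coloured by role, with mouse symbols in capitals; the pairs nearly coincide, and the widest gaps are those of POLR1A in LM8 and RRN3 in A375M.

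In each line the lowest difference was that of an RNA polymerase I gene. Polr1a, which encodes the largest catalytic subunit, read 8.86 in the LM8 knock-down array and 9.16 in the LM8 control array, a difference of -0.30 that left 81.2% of the control level. Its other LM8 probe sets above the array median differed by -0.15 and -0.055, and both dim ones by -0.18 and -0.21, so that all 5 were lower in the knock-down array. With the mean of all 5 the difference was -0.18 and the gene was no longer past 1.2-fold. Of all 5313 LM8 genes with several probe sets above the array median, 1300 were lower on all of theirs. In A375M the brightest POLR1A probe set read 7.16 in both arrays, and the others differed by -0.17 and 0.055, so no shift of one direction was seen there. RRN3, the initiation factor that brings RNA polymerase I to the promoter-bound complex, read 9.12 in the A375M knock-down array and 9.44 in the A375M control array, a difference of -0.32 that left 80.2%. That probe set carries the suffix of probes shared between transcripts, and the annotation names RRN3 pseudogenes on other probe sets, so signal of the gene and of near-identical copies may not be separate here. Mouse Rrn3 went the other way, at 9.72 in the LM8 knock-down array and 9.64 in the LM8 control array, a difference of 0.079. Polr1b, which encodes the other large catalytic subunit, differed by -0.020 in LM8, and POLR1B was identical in both A375M arrays on 3 of its 4 probe sets and at -0.11 on the remaining one. In a culture, fewer cells with a transcript and less of it per cell cannot be told apart.

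Genes of the modification particles kept close to their control levels. Of the box C/D proteins, the core protein genes Nop56 and Nop58 differed by 0.054 and 0.029 in LM8, and Fbl, which encodes the methyltransferase fibrillarin, by -0.069. In A375M NOP58 was identical in both arrays and FBL differed by 0.039. The 4 box H/ACA genes were all slightly higher in the LM8 knock-down array, from 0.048 to 0.083, and stayed above 0 under every processing alternative that gave a value. Dkc1, which encodes the pseudouridine synthase dyskerin, read 12.64 in the LM8 knock-down array and 12.56 in the LM8 control array, with a range of 0.0065 to 0.25 over its 3 probe sets. Nhp2 differed by 0.048 on its brightest probe set and by 0.22 on the other, Nop10 by 0.071 and -0.012, and Gar1 by 0.070. In A375M these genes did not share a direction. NHP2, a small RNA-binding protein of the particle, differed by 0.10, NOP10 by -0.13, and GAR1, an outer protein of the particle, was identical.

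Genes of the abundant nucleolar proteins were likewise near 0 on their brightest probe sets. Npm1, which encodes the histone and ribosome chaperone nucleophosmin, read 14.04 in the LM8 knock-down array and 14.15 in the LM8 control array, a difference of -0.12, with -0.048 on its other probe set. NPM1 in A375M read 13.58 in the knock-down array and 13.63 in the control array, a difference of -0.049, with -0.12 and -0.18 on its other probe sets. All 5 NPM1 probe sets of the 2 lines were therefore lower in the knock-down arrays. Of all genes with several probe sets above the array median, 1300 of 5313 in LM8 and 1140 of 6265 in A375M were lower on all of theirs. NPM1 kept this sign under every processing alternative that gave a value, which leaves out the removal of suffixed probe sets in A375M. The alternatives rework the same arrays and add no replicate. Ncl, which encodes the RNA-binding protein nucleolin, differed by 0.028 in LM8 and NCL by 0.025 in A375M. The other Ncl probe sets in LM8 were of both signs, between -0.085 and 0.33. Nolc1, which encodes a chaperone of snoRNPs, differed by 0.0012 in LM8 on its brightest probe set and NOLC1 by 0.062 in A375M. The other Nolc1 probe sets in LM8 were at -0.26 and 0.63.

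The target gene acts on the small subunit, so small-subunit and large-subunit factors were set side by side. In LM8 the 11 small-subunit factors had a median difference of 0.033, with 6 higher and 5 lower and a range of -0.076 to 0.23, and the 7 large-subunit factors a median of 0.021, with 5 higher and 2 lower and a range of -0.055 to 0.20. In A375M the 11 small-subunit factors had a median of 0, with 2 higher, 3 lower and 6 identical and a range of -0.12 to 0.056, and the 6 large-subunit factors a median of 0.012, with 4 higher, 1 lower and 1 identical and a range of -0.031 to 0.037. When all probe sets of a gene were averaged, the LM8 median of the small-subunit factors was 0.033 and that of the large-subunit factors 0.093, so the order of the classes turned. The difference between the classes was not tested.

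Among small-subunit factors, Utp20, a large scaffold protein of the processome that cuts the precursor, had the highest LM8 difference of all members. It read 10.16 in the LM8 knock-down array and 9.93 in the LM8 control array, a difference of 0.23, or 1.17-fold higher. UTP20 read 8.19 in the A375M knock-down array and 8.31 in the A375M control array, a difference of -0.12. Tsr1, a factor of late small-subunit precursors, read 11.30 in the LM8 knock-down array and 11.13 in the LM8 control array, a difference of 0.17, with 0.15 on its other probe set. TSR1 differed by -0.063 in A375M, and its 4 probe sets there lay between -0.072 and 0. Ltv1, another late factor that leaves before the subunit is finished, differed by 0.13 in LM8, and LTV1 by -0.11 in A375M. On the brightest probe sets, Utp20, Tsr1 and Ltv1 thus had the 3 highest differences among small-subunit factors in LM8. In A375M they were the 3 that were lower on theirs. All were within 1.2-fold and kept these signs under every processing alternative that gave a value. They were not the only ones with lower A375M probe sets above the array median. RCL1 had one at -0.18 and HEATR1 had others at -0.046 and -0.058, while PNO1 had one at 0.046. With all probe sets averaged, RCL1 was at -0.059 in A375M.

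The remaining small-subunit factors differed by less. In LM8 Heatr1, a processome protein also linked to RNA polymerase I transcription, was at 0.095, Bysl, an assembly factor, at 0.080 and Rcl1, a processome protein related to RNA cyclases, at 0.033. Nob1, the nuclease that forms the end of the small-subunit RNA, was at -0.0022 and Pno1, its partner, at -0.014. Utp18 and Wdr43, WD-repeat proteins of the processome, were at -0.0054 and -0.036, and Rrp9, the protein specific to the U3 particle, at -0.076. The sign of Wdr43 and Heatr1 depended on the probe set. The other Wdr43 probe set was at 0.26, and the averages over all probe sets were 0.11 for Wdr43 and -0.13 for Heatr1. In A375M NOB1 was at 0.056 and UTP18 at 0.0077, and PNO1, BYSL, RRP9, WDR43, HEATR1 and RCL1 were identical in both arrays on their brightest probe sets.

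On their brightest probe sets large-subunit factors showed the same narrow range, and some of their other probe sets lay outside it. Bop1, Pes1 and Wdr12 form a complex needed to process large-subunit RNA. Bop1 read 9.85 in the LM8 knock-down array and 9.65 in the LM8 control array, a difference of 0.20, with 0.036 on its other probe set. Pes1 differed by 0.0012 on its brightest probe set and by 0.28 on the other, and Wdr12 by 0.021 and 0.18 on its probe sets above the array median. Averaged over all their probe sets the 3 genes were at 0.12 (Bop1), 0.14 (Pes1) and 0.11 (Wdr12). Rrs1, needed to bring in the 5S particle, differed by 0.11 in LM8, with -0.093 on its other probe set. Nop2, a methyltransferase of large-subunit RNA, differed by 0.085. Pa2g4, a growth regulator that binds ribosomes, differed by -0.029, with a range of -0.12 to 0.30 on its other probe sets. Nop16 differed by -0.055, with -0.21 on its other probe set. In A375M WDR12 was at 0.037, NOP16 at 0.029, PES1 at 0.020, RRS1 at 0.0036 and PA2G4 at -0.031, and NOP2 was identical in both arrays. The other PES1 probe set was at 0.14 and the other PA2G4 one at 0.10. Those of WDR12 were at 0.010 and 0.074, and those of NOP16 lay between -0.020 and 0.019.

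Several members had probe sets that disagreed, which bounds how finely their differences can be read. Of the 19 members with several probe sets above the array median in LM8, 8 (42.1%) had both signs, 8 were higher on all and 3 were lower on all. Of all 5313 such genes in LM8, 48.6% had both signs. Of 12 such members in A375M, 3 (25%) had both signs, 2 were higher on all, 1 was lower on all and 6 included an identical one. Of all 6265 such genes in A375M, 23.1% had both signs. Disagreement of this kind was thus about as common over all genes. Over these members the median SD between probe sets was 0.120 in LM8 and 0.045 in A375M, beside 0.116 and 0.071 over all such genes. The widest spread was that of Heatr1 and Nolc1 in LM8. The Nolc1 probe sets read 11.80, 10.48 and 9.17 in the knock-down array and 11.80, 10.74 and 8.54 in the control array, differences of 0.0012, -0.26 and 0.63. The Heatr1 probe set at -0.58 was dim, at 5.64 in the knock-down array and 6.21 in the control array, while its brightest was at 0.095. Counted over probe sets above the array median, 4 of 59 in LM8 were at least 1.2-fold higher, on Nolc1, Ncl, Pa2g4 and Pes1, where 9.31% of all such probe sets were, and 2 were lower, on Heatr1 and Polr1a, where 9.93% were. In A375M 1 of 52, that of RRN3, was at least 1.2-fold lower, where 6.04% were, and 0 were higher, where 3.09% were.

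**Figure D2:**
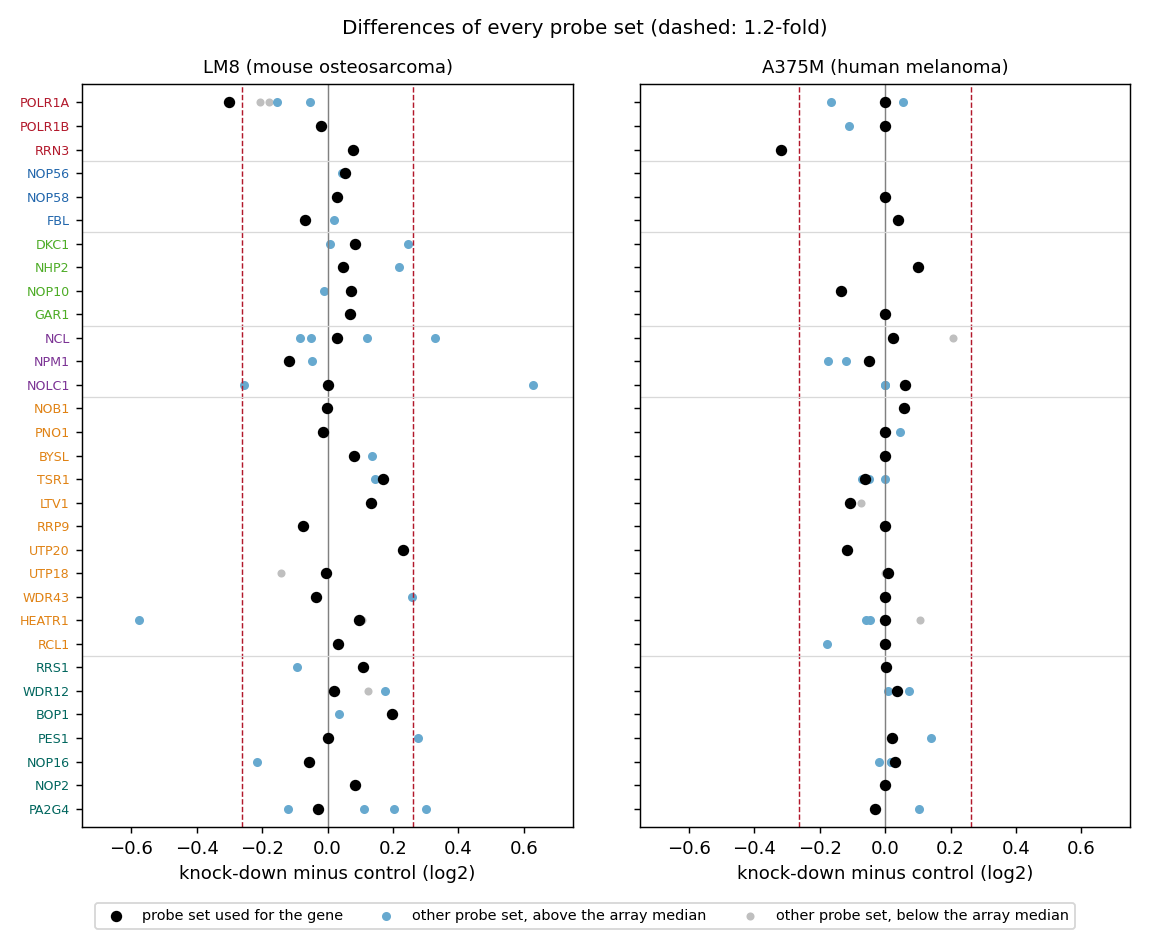
Knock-down minus control difference (horizontal axis, log2) of every probe set of each ribosome biogenesis factor in LM8 (left) and A375M (right). Black points are the brightest probe set of a gene, blue points other probe sets above the array median, grey points those below it, and dashed lines mark 1.2-fold; only POLR1A in LM8 and RRN3 in A375M have a black point outside them, and NOLC1 (0.63) and HEATR1 (-0.58) have the widest blue points in LM8.

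The lines were then set side by side for the 28 genes measured in both. Of these, 6 were higher in both knock-down arrays (NHP2, NCL, NOLC1, RRS1, WDR12 and PES1), 2 were lower in both (NPM1 and PA2G4), 9 had opposite signs and 11 were identical in the A375M arrays. The same counts were not made over all genes kept in both lines, so they are not read as a trait of the members. Of the 6, NHP2 and WDR12 were above 0 in both lines under every processing alternative that gave a value, while NCL, NOLC1, RRS1 and PES1 were below 0 in at least 1 line after another scaling. For PA2G4 the sign depended on the probe set, with 3 of its 5 LM8 probe sets and 1 of its 2 A375M probe sets higher. The arrays of each line form a pair, and limma was fitted to the 2 differences of each of 8981 genes kept in both lines, with Benjamini-Hochberg adjustment over all of them. Of the 28 members 0 had an adjusted p under 0.05, where 0.0111% of genes did, and 0 had an unadjusted p under 0.05, where 3.1% did. The lowest unadjusted p was that of POLR1A, with a mean difference of -0.15 (SE 0.10, adjusted p = 0.994 in limma), followed in size by RRN3 at -0.12 (SE 0.12, adjusted p = 0.994 in limma). The 95% intervals of the mean difference over the 2 lines lay within -0.43 and 0.34 for all 28 members. They concern that mean and set no bound on the change in either line. This paired fit counts 1 mouse line and 1 human line as replicates, and 11 members enter it with a difference of exactly 0 in A375M. Without the line as a block the intervals lay within -4.12 and 4.15.

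**Figure D3:**
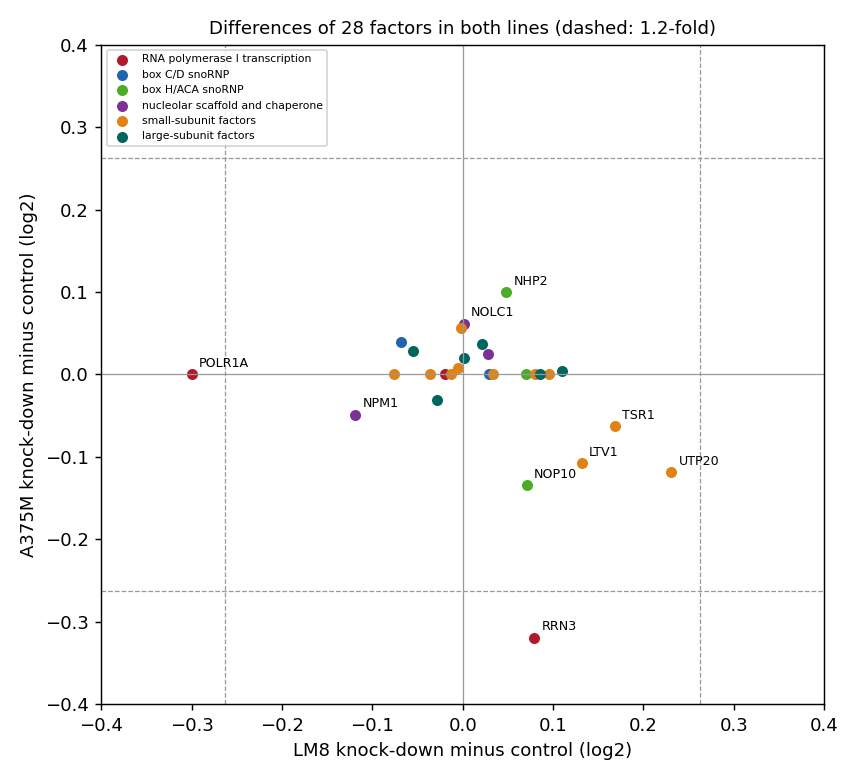
Knock-down minus control difference (log2) of 28 ribosome biogenesis factors in LM8 (horizontal axis) and A375M (vertical axis), each point a gene on its brightest probe set, coloured by role, with dashed lines at 1.2-fold. Most points lie within 0.1 of 0 on both axes, with POLR1A at -0.30 in LM8 and RRN3 at -0.32 in A375M apart from the rest, and UTP20, TSR1 and LTV1 higher in LM8 and lower in A375M.

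Of 102 other ribosome biogenesis genes listed by function, 97 were kept in LM8 and 96 in A375M. In LM8 4 of the 97 were at least 1.2-fold higher and 0 lower, beside shares of 8.85% and 7.58% over all kept genes. Their median difference was 0.045, with 64 higher and 33 lower, where 6268 of 11646 kept genes were higher and 5358 lower. In A375M 0 of 96 were at least 1.2-fold higher and 2 lower, beside 3.21% and 4.67%. Their median was 0, with 28 higher, 41 lower and 27 identical. Of 13244 kept A375M genes 3835 were higher, 5334 lower and 4075 identical. As a group the other RNA polymerase I genes did not share the lower values of Polr1a and RRN3. Their median was 0.016 over 10 genes in LM8, with 6 higher and 4 lower, and 0 over 13 genes in A375M, with 6 higher and 5 lower. None was past 1.2-fold in either line on its brightest probe set. Of them TAF1D was lower in both lines, at -0.23 in LM8 and -0.14 in A375M. Its LM8 probe sets above the array median lay between -0.32 and 0.042. The highest differences in LM8 were those of Noc2l (0.38), Mdn1 (0.36) and Noc4l (0.32), and the lowest those of Imp3 (-0.24), Taf1d (-0.23) and Utp23 (-0.19). Noc2l and Mdn1 act on large-subunit precursors and Noc4l, Imp3 and Utp23 on small-subunit ones, while Taf1d belongs to a transcription factor of RNA polymerase I. The other Noc2l probe set above the array median was at -0.14, and those of Taf1d and Utp23 were of both signs. The lowest differences in A375M were those of the large-subunit factors MDN1 (-0.42), LSG1 (-0.33) and PELP1 (-0.22), and the highest those of IMP3 (0.22), RSL1D1 (0.14) and NOL10 (0.13).

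**Figure D4:**
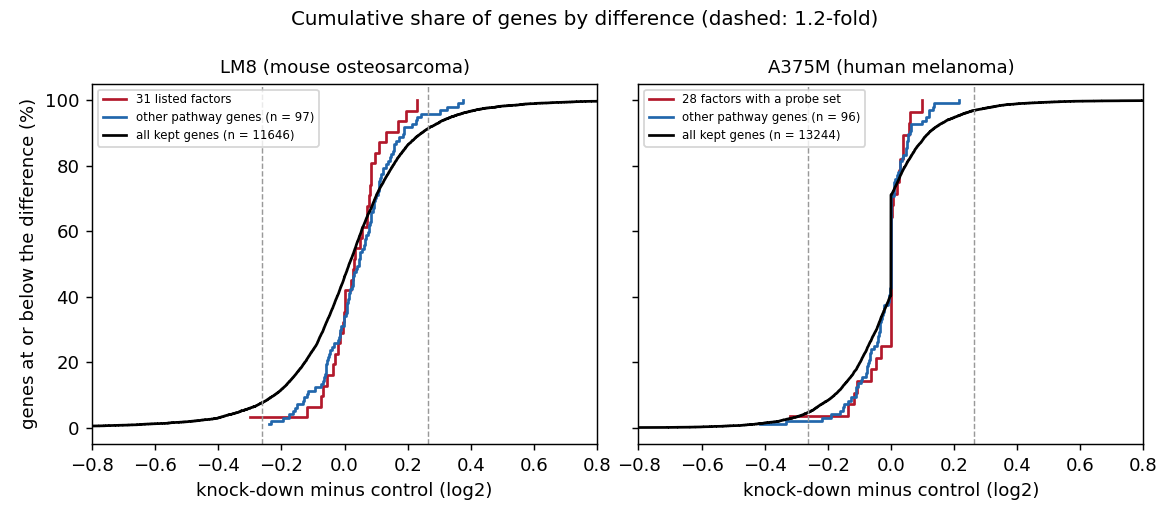
Cumulative share of genes (vertical axis, percent) at or below a knock-down minus control difference (horizontal axis, log2) in LM8 (left) and A375M (right), for the listed ribosome biogenesis factors (red), other genes of the pathway (blue) and all kept genes (black), with dashed lines at 1.2-fold. The red and blue curves rise more steeply around 0 than the black one in both lines, and the vertical step at 0 in A375M is the 30.8% of kept genes with identical values.

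Members with and without the E-box were compared in the same way. In LM8 the 9 members with an E-box in the mouse window had a median difference of 0.079, with 6 higher and a range of -0.036 to 0.23, and the 18 without one a median of 0.028, with 12 higher and a range of -0.30 to 0.095. In A375M the human counterparts of the 9 had a median of 0, with 2 higher and a range of -0.32 to 0.020. The 16 others had a median of 0, with 6 higher and a range of -0.13 to 0.10. Of the 9 members with an E-box 6 were small-subunit factors, so the letters and the role cannot be told apart. The difference between members with and without an E-box was not tested. The human promoters were not analysed here.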

How the data were processed

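Total RNA from 4 stably infected cell lines was labelled with biotin and hybridised to Affymetrix arrays, per the labels' protocols. The authors deposited log2 values of each probe set from RMA, per the submitters' processing notes; neither a software version nor a joint run of the arrays is stated there. The sorted values of an array pair were at most 0.064 (LM8) and 0.075 (A375M) apart. No depth applies to arrays, and their number limits the precision.

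Groups came from the sample titles. Names of probe sets came from the platform annotation, and old mouse symbols of other pathway genes through gene IDs in a RefSeq table (GRCm38.p6); 932 mouse and 1801 human probe sets with several symbols named no gene. A gene was read from its probe set with the highest mean and kept above the 50th percentile. Differences were counted at 1.2-fold, with no test within a line. limma 3.58.1 in R 4.3.3 was fitted to the paired differences. Lines pair the arrays by the titles, so this is the blocked fit. It was also run on simulated data with shifts of 0.7 and 1.5 in both lines. It called 100 of 100 genes at each shift and 14 of 8781 unshifted genes. Smaller shifts, such as those of the members, and identical values were not simulated, so the power to detect them was not measured. All members were named, with the 3 highest and 3 lowest other pathway genes of each line. The members, lists and thresholds were chosen with earlier results of these data known. The alternatives tried were no filter, a 70th percentile filter, repeated quantile normalization, centring, subtraction of a loess curve (span 0.4), averaging all probe sets of a gene, leaving out those ending in _x_at or _s_at, 32 added before log2, other folds and no block.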

Additional observations from a re-analysis of the deposited data

Results flagged for a closer look

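MDN1, a large ATPase that remodels large-subunit precursors and 1 of the other pathway genes, had differences past 1.2-fold in opposite directions in the 2 lines. Mdn1 read 9.44 in the LM8 knock-down array and 9.08 in the LM8 control array, a difference of 0.36. MDN1 read 7.44 in the A375M knock-down array and 7.86 in the A375M control array, a difference of -0.42. The differences are 0.77 apart on the log2 scale. Each rests on 1 probe set and 1 array per group, and the difference between the lines was not tested. Only the members and the other pathway genes named for their highest or lowest differences were searched for such opposite changes. MDN1 was thus picked by the same values that flag it. The share of all kept genes with opposite changes of this size was not counted. No listed member was at least 1.2-fold different in opposite directions.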

How the results depend on the processing

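No member was at least 1.2-fold higher in either line under any of the 8 processing alternatives. The count of members at least 1.2-fold lower in LM8 was 0 when all probe sets of a gene were averaged, 0 at 1.5-fold and 0 at 2-fold, in place of 1. In A375M it was 0 without probe sets ending in _x_at or _s_at, which removes the RRN3 probe set and leaves 21 members, 0 at 1.5-fold and 0 at 2-fold. When all probe sets were averaged, Wdr43 (0.11) and Pa2g4 (0.093) were above 0 and Heatr1 (-0.13) below 0 in LM8, against their signs on the brightest probe set. Polr1a lay between -0.31 and -0.18 in LM8 and RRN3 between -0.35 and -0.27 in A375M over the alternatives that gave a value. The median over members lay between 0.012 and 0.068 in LM8 and between -0.030 and 0.044 in A375M, where its sign followed the scaling. Without the line as a replicate block 0 members had an adjusted p under 0.05 in limma, as with it, and the lowest adjusted p of a member lay between 0.944 and 1 over all settings. Leaving out an array was not possible with 1 per group.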
